A study of Homo sapiens with 6 samples.

Results

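The transcription factors that drive epithelial-mesenchymal transition (EMT) and the splicing regulators that mark epithelial cells were followed in 2 human cultures, across 6 poly(A)-selected RNA libraries. The 8 genes were taken by symbol: the EMT factor genes ZEB1, SNAI1, SNAI2, TWIST1 and TWIST2, the epithelial splicing regulator genes ESRP1 and ESRP2, and GRHL2, which encodes an epithelial transcription factor. Of these, 7 were matched among the 20503 genes of the count table. GRHL2 was absent from the matched rows, by symbol and by gene ID, and was not analysed here. The cultures are T47D, labelled an ER-positive breast cancer line, and its tamoxifen-resistant subline T47D-TR, with 3 libraries of each. Both were grown in DMEM with 10% serum, and T47D-TR also with 4-hydroxytamoxifen, a receptor-blocking tamoxifen metabolite, at 1 µM, so the subline and the drug cannot be told apart. T47D-TR is a single subline, and the labels do not say that its libraries came from separate cultures. The p-values therefore measure only the spread between these libraries, which may be technical.

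EMT is the loss of cell-cell junctions and gain of motility by epithelial cells. ZEB and Snail proteins bind short E-box sequences in the promoters of junction genes such as CDH1, which encodes E-cadherin, and repress them through recruited corepressors. Twist proteins are basic helix-loop-helix factors that act as dimers with E proteins. On the epithelial side, ESRP1 and ESRP2 direct the exon choice of receptors and adhesion genes, grainyhead-like factors such as GRHL2 activate junction genes, and ZEB1 and these epithelial factors are known to repress each other's genes. Luminal breast cancer lines usually hold the epithelial program, with high E-cadherin and ESRP1 and little ZEB1.

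The libraries held 17199315 to 19867230 counts, so that 3 counts in a single library correspond to 0.153 to 0.177 CPM (counts relative to library size, scaled by TMM). T47D-TR replicate 3 was the least like its group: per gene, chi-square was 8.36 and 9.58 when it was set beside replicates 1 and 2, and 2.79 between those. The luminal label was only partly met by the markers in these libraries. ESR1, the oestrogen receptor alpha gene, was near absent: T47D replicates 1 to 3 gave 3, 0 and 2 counts of it, T47D-TR replicates 2, 4 and 3. Of 13 listed luminal markers 10 were in the table, 3 of them under 1 CPM in T47D and 4 in T47D-TR. Summed over these 10, T47D libraries held 2071 to 2154 CPM and T47D-TR libraries 2590 to 2981 CPM, most of it from the keratin genes KRT8 and KRT18. CDH1 stood at 2.12 ± 0.741 CPM in T47D (SD, n = 3 here and below) and the mesenchymal filament gene VIM at 769 ± 10.9 CPM. Whether these libraries are of T47D cannot be settled from these values, so T47D and T47D-TR here mean the libraries so labelled.

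The genes moved in different directions and mostly by little. Of the 7 tested, 2 rose in T47D-TR (ZEB1 and ESRP1), 3 fell (SNAI1, TWIST2 and ESRP2) and 2 were not called (SNAI2 and TWIST1). A call is a Benjamini-Hochberg adjusted p under 0.05 in edgeR's quasi-likelihood test over 15961 genes. By that rule 63.0% of all tested genes were called, 32.5% higher and 30.5% lower in T47D-TR, so 5 of 7 is near the background. DESeq2 also called 5 of the 7, against 44.5% of 20502 genes. That share had no filter on low counts and is not comparable with the 63.0%. Limma with voom and quantile normalization called 4, against 63.6% of the 15961 genes. The libraries of the groups did not overlap for 4 of the 7 genes, against 68.4% of tested genes. TWIST2 and ESRP1 passed the filter on low counts through the group where they are high. The median log2 fold change was 0.12 among the 5 EMT factor genes and 0.00 among all tested genes, whose median size of change was 0.36.

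**Figure D1:**
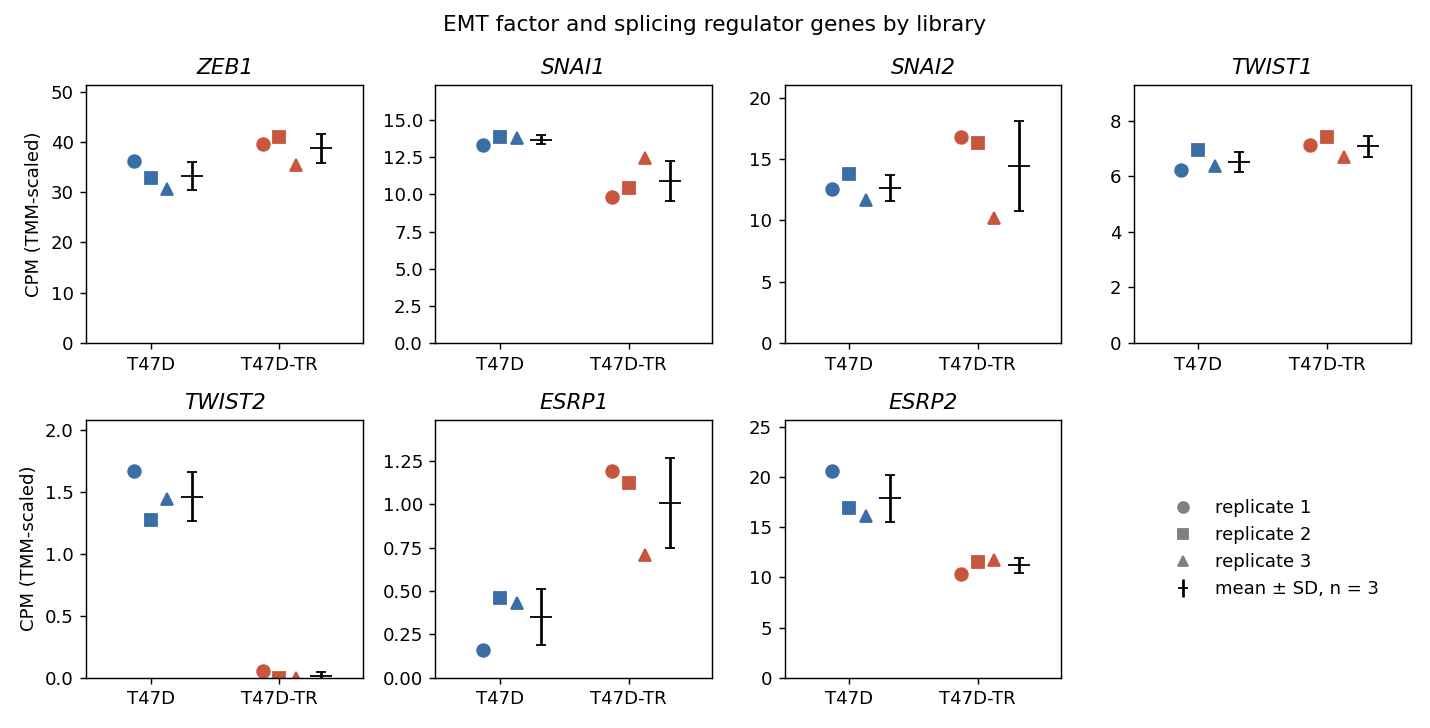
Level of each gene in CPM scaled by TMM (vertical axes, from 0) in the 3 T47D and 3 T47D-TR libraries, with one symbol per replicate and the mean ± SD beside them. TWIST2 drops from 1.28 to 1.67 CPM in T47D to at most 0.0518 CPM in T47D-TR, while SNAI2 in T47D-TR replicate 3, at 10.2 CPM, lies under all T47D libraries.

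ZEB1 encodes a zinc finger repressor of junction genes and of ESRP1. It lies on chromosome 10 from 31318495 to 31529814 (GRCh38, plus strand). Its level was 36.1, 32.8 and 30.7 CPM in T47D and 39.6, 41.1 and 35.5 CPM in T47D-TR. The ranges met, since T47D-TR replicate 3 lay just under T47D replicate 1. The fold change was 1.17, a log2 value of 0.22 ± 0.09 (SE; edgeR adjusted p = 0.0227). This call was lost without T47D replicate 2 (edgeR adjusted p = 0.0795), T47D replicate 3 (0.12), T47D-TR replicate 1 (0.0702) or T47D-TR replicate 2 (0.0822), and with 2 other normalizations.

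The sequence upstream of the first RefSeq start of ZEB1 is shown because ZEB and Snail proteins recognise the E-box CACCTG, which reads CAGGTG on the other strand, and ZEB1 itself was among the genes that rose. The 250 bases before that start (chr10:31318167-31318416, GRCh38.p14, plus strand) hold 1 such sequence, in capitals, which begins 57 bases before the start. A match is only a description of the letters.
ZEB1 upstream: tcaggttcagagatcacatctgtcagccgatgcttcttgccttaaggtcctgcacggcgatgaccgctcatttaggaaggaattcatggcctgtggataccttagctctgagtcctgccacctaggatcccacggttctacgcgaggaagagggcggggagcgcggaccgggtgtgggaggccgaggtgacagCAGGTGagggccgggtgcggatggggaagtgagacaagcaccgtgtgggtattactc

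Across the first starts of 10491 tested genes found in the RefSeq promoter table, 16.1% held CACCTG on either strand in the same window. ZEB1-AS1, a noncoding gene on the opposite strand, was the only 1 of 4 listed antisense and microRNA host genes matched in the table. It begins inside ZEB1, and their gene bodies share 1953 bases but 0 exonic bases in the annotation used. The ZEB1-AS1 level rose 2.58-fold between T47D (2.46 ± 0.238 CPM) and T47D-TR (6.36 ± 0.714 CPM), a log2 fold change of 1.37 ± 0.12 (edgeR adjusted p = 8.17e-06). Its counts were 47, 52 and 41 in T47D and 134, 129 and 94 in T47D-TR, with no overlap between the groups. No source used here states the strand setting of the counting, so reads of the pair may not be separable where they overlap.

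SNAI1 and SNAI2 encode Snail and Slug, zinc finger repressors of the same E-boxes. SNAI1 (chromosome 20, 49982999 to 49988886) was measured at 13.3, 13.9 and 13.8 CPM in T47D and 9.84, 10.4 and 12.4 CPM in T47D-TR. All T47D-TR libraries lay below all T47D libraries, replicate 3 nearest to them. SNAI1 fell by 0.33 ± 0.10 on the log2 scale (edgeR adjusted p = 0.0132), and without T47D-TR replicate 1 the call was lost at -0.26 (edgeR adjusted p = 0.0597).

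SNAI2 (chromosome 8, 48917604 to 48921740) was a gene in which T47D-TR replicate 3 parted from its group. Its level was 12.5, 13.7 and 11.7 CPM in T47D and 16.8, 16.3 and 10.2 CPM in T47D-TR. The first pair of T47D-TR libraries lay above all T47D libraries and replicate 3 below them. Over all libraries the log2 fold change of 0.20 ± 0.24 was not called (edgeR adjusted p = 0.287), whereas without T47D-TR replicate 3 it was 0.39 (edgeR adjusted p = 0.000615). Per kilobase, the SNAI2 level was 0.587 to 0.687 times that of SNAI1 in T47D, and 1.19, 1.08 and 0.569 times in T47D-TR replicates 1, 2 and 3.

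The same library held counts of some listed fibroblast markers that the others lacked or nearly lacked. Chosen after their values were seen, the collagen genes COL1A2 and COL3A1 had 22 and 37 counts in T47D-TR replicate 3, and at most 0 and 3 in any other library. The proteoglycan gene DCN had 19 counts there and at most 4 elsewhere. Other markers of that list showed no such excess. COL1A1 had 342, 319 and 310 counts in T47D-TR replicates 1 to 3, PDGFRB 64, 77 and 59, LUM 6, 3 and 5, and THY1 3, 0 and 1. Summed over its 8 genes in the table, the fibroblast marker list was lower in T47D-TR. The sum was between 36.6 and 39.9 CPM in T47D, and 21.9, 20.4 and 26.9 CPM in T47D-TR replicates 1 to 3. Most of it was COL1A1 and, in T47D, LUM. The fall was mainly that of LUM, from 13.9 ± 1.80 to 0.253 ± 0.0872 CPM, a gene that passed the filter through T47D only. COL1A1 was not called, at 18.1 ± 1.04 and 17.4 ± 1.07 CPM, and PDGFRB fell from 5.72 ± 0.102 to 3.58 ± 0.313 CPM. COL1A2 and PDGFRA were at 0 in all libraries but T47D-TR replicate 3. The part of these transcripts in the SNAI2, SNAI1 and ZEB1 values of that library was not tested. Of 5 immune and endothelial markers, PECAM1 rose to 27.2 ± 3.81 CPM and the other 4 stayed under 1 CPM in both groups.

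TWIST1 and TWIST2 encode closely related helix-loop-helix factors with separate genes. TWIST2 had the largest change of the 7 genes. It (chromosome 2, 238848032 to 238910543) had 31, 25 and 27 counts in T47D and 1, 0 and 0 in T47D-TR. The transcript was thus present in each T47D library and at the limit of detection in each T47D-TR library. The ratio of 83 counts to 1, scaled to library size, was 81.5 with a 95% exact (Clopper-Pearson) interval of 14.2 to 3259. This interval covers counting error only. The fold fitted by edgeR was 59.8, a log2 fold change of -5.90 (edgeR adjusted p = 2.79e-06). TWIST2 passed the filter on low counts through T47D only, so that its direction was set by it. It stayed called in all 12 alternatives that tested it, but most of them used the same filter. With no filter its log2 fold change was -5.90 (edgeR adjusted p = 1.53e-06).

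TWIST1 (chromosome 7, 19020991 to 19117672 with its long transcripts) was measured at 6.24, 6.95 and 6.37 CPM in T47D and 7.15, 7.44 and 6.68 CPM in T47D-TR. The ranges overlapped, and the log2 fold change of 0.12 ± 0.06 was not called (edgeR adjusted p = 0.375); with voom and quantile normalization it was -0.10. Fewer cells with a transcript and less transcript per cell cannot be told apart in such bulk libraries. TWIST2 stood at 0.779 ± 0.104 RPKM (CPM per kilobase of exon) in T47D, under the 3.91 ± 0.226 RPKM of TWIST1.

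The TWIST2 upstream sequence is shown because this gene was near 0 counts in T47D-TR. The 250 bases before its RefSeq start hold 0 copies of CACCTG and 26 CG dinucleotides, against a median of 21 in tested genes. The 197 bases of that window outside annotated UTRs (chr2:238847835-238848031, GRCh38.p14, plus strand) are given, with no capitals since there is no match.
TWIST2 upstream: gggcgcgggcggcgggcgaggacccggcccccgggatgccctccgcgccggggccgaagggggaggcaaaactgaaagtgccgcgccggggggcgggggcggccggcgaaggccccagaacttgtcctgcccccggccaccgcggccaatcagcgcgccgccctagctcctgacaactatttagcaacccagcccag

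The epithelial splicing regulators went in opposite directions. ESRP2 (chromosome 16, 68229111 to 68238102), the more abundant of the pair, was measured at 20.6, 17.0 and 16.1 CPM in T47D and 10.4, 11.5 and 11.8 CPM in T47D-TR. All T47D-TR libraries lay below all T47D libraries. The level fell by 0.67 ± 0.12 on the log2 scale, 1.60-fold (edgeR adjusted p = 0.000142), and the call held in all 13 alternatives. ESRP2 shares 149 exonic bases with NFATC3, a transcription factor gene on the other strand, which stood at 72.6 ± 6.15 CPM in T47D and 59.3 ± 1.82 CPM in T47D-TR (a log2 difference of -0.29, edgeR adjusted p = 0.00163).

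ESRP1 (chromosome 8, 94641074 to 94707466) was barely detected in T47D. It had 3, 9 and 8 counts there and 23, 22 and 12 counts in T47D-TR, with no overlap between the groups. Its level rose from 0.350 ± 0.164 to 1.01 ± 0.26 CPM, 2.86-fold (log2 fold change 1.51 ± 0.41, edgeR adjusted p = 0.00531). ESRP1 passed the filter on low counts through T47D-TR only, so that its direction was set by it. It was called in all 12 alternatives that tested it, but most of them used the same filter. With no filter its log2 fold change was also 1.51 (edgeR adjusted p = 0.00669). ESRP2 remained the higher of the pair per kilobase in each library. The ratio of ESRP2 to ESRP1 was 37.2 to 129 in T47D and 8.76 to 16.7 in T47D-TR, with ranges that do not overlap and a denominator of few counts.

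**Figure D2:**
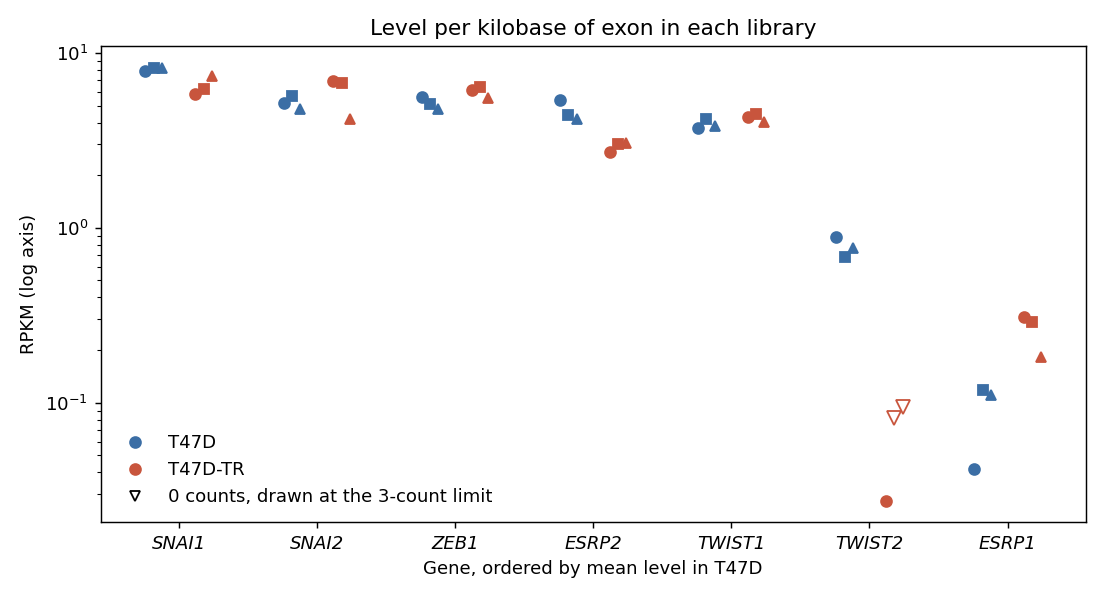
Level of each gene in RPKM (log axis) in each library, ordered by the mean in T47D, with T47D in blue, T47D-TR in red and open triangles for libraries with 0 counts drawn at the limit of 3 counts. SNAI1, SNAI2, ZEB1, ESRP2 and TWIST1 lie between 2.70 and 8.24 RPKM in all libraries, with TWIST2 and ESRP1 under 1 RPKM.

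Per kilobase of exon, the order in T47D was SNAI1 (8.12 ± 0.178 RPKM), SNAI2 (5.21 ± 0.429), ZEB1 (5.16 ± 0.424), ESRP2 (4.66 ± 0.621), TWIST1 (3.91 ± 0.226), TWIST2 and ESRP1 (0.0904 ± 0.0424 RPKM). SNAI2, ZEB1 and ESRP2 did not differ beyond their spread. In T47D-TR, SNAI1 (6.47 ± 0.801 RPKM), ZEB1 (6.02 ± 0.449) and SNAI2 (5.95 ± 1.52) lay within their spread of each other. TWIST1 (4.26 ± 0.228 RPKM) and ESRP2 (2.92 ± 0.196 RPKM) followed, and ESRP1 (0.260 ± 0.0672 RPKM) lay above TWIST2. The ratio of ZEB1 to ESRP2 per kilobase was 1.04 to 1.15 in T47D and 1.80 to 2.28 in T47D-TR. Mesenchymal factor transcripts were thus present beside ESRP2 transcripts in both cultures. Lengths are those of merged exons in GENCODE 29, which may differ from the transcripts these cells make.

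**Figure D3:**
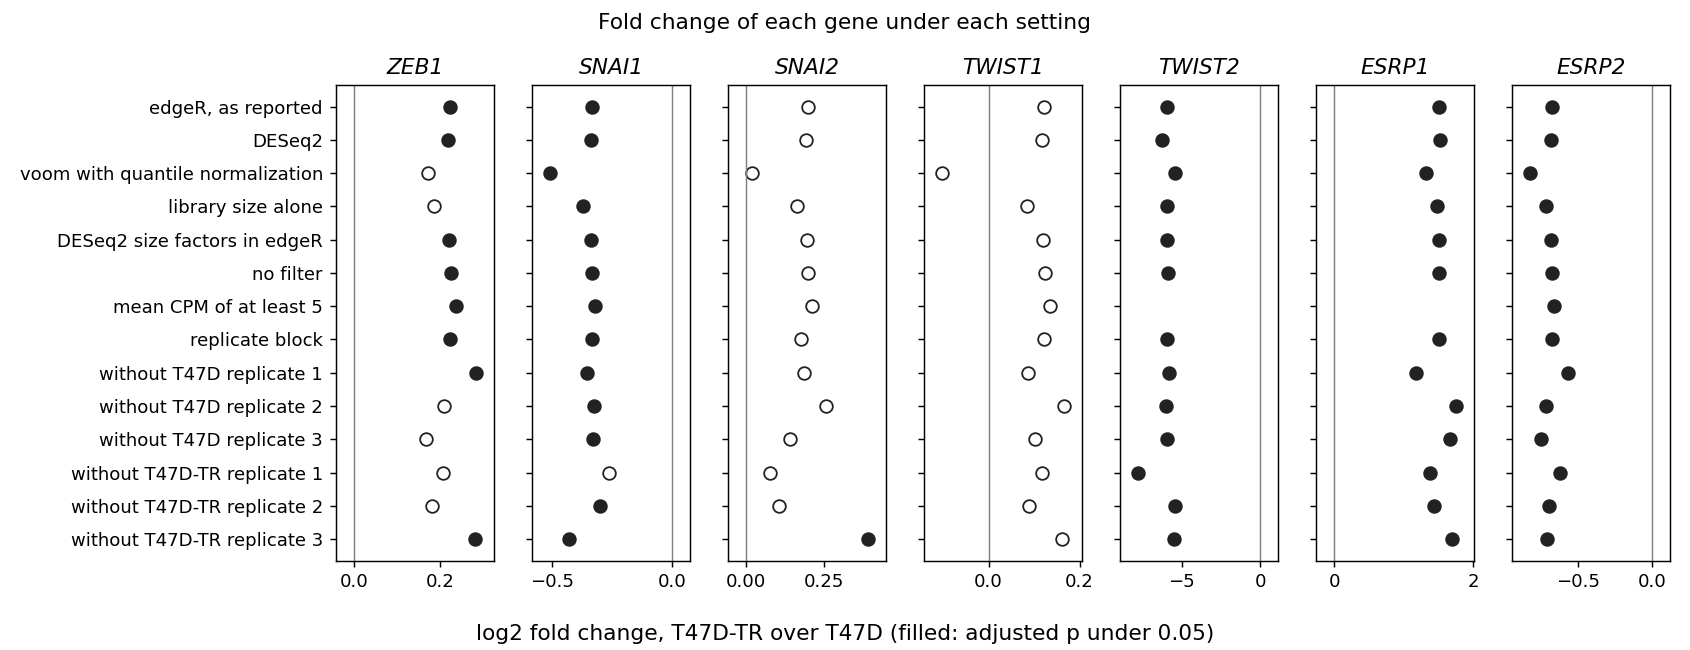
Log2 fold change of T47D-TR over T47D (horizontal axes, each with its own scale) for each gene under the reported setting and each alternative, filled where the adjusted p is under 0.05. ESRP2, ESRP1 and TWIST2 are filled in every setting that tested them, and SNAI2 only without T47D-TR replicate 3.

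In the authors' deposited table, which rests on DESeq, the same 5 of the 7 genes had a false discovery rate under 0.05. The share was 44.4% over all its 20503 genes, with no filter on low counts. The deposited log2 fold changes were 0.22 for ZEB1, -0.34 for SNAI1, 0.18 for SNAI2 and 0.11 for TWIST1. They were -6.41 for TWIST2, 1.52 for ESRP1 and -0.68 for ESRP2. They come from the same libraries and are not independent of the values above.

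Other EMT factor genes moved in both directions. Beside this list and those below, 32.5% of all tested genes rose and 30.5% fell in T47D-TR. These lists were chosen with earlier results of these data known, so the comparison is no test of them. Of 14 listed, 11 were in the table and 10 were tested, of which 6 rose and 3 fell, with a median log2 fold change of 0.45; TCF4 passed the filter on low counts through T47D-TR only. The forkhead factor gene FOXQ1 rose 15.7-fold (1.33 ± 0.307 CPM in T47D, 20.8 ± 2.29 CPM in T47D-TR; edgeR adjusted p = 8.33e-10), and FOXC2, another forkhead gene, from 1.60 ± 0.228 to 7.14 ± 0.904 CPM. The E protein gene TCF4, a dimer partner of Twist proteins, had 2 counts in each T47D library and 18, 40 and 22 in T47D-TR. ZEB2, the paralogue of ZEB1, averaged 14.4 ± 1.16 CPM in T47D and 19.6 ± 1.14 CPM in T47D-TR (a log2 difference of 0.44, edgeR adjusted p = 0.000756), with no overlap between the groups. Among those lower in T47D-TR were the forkhead gene FOXC1 (44.1 ± 1.23 to 24.8 ± 1.74 CPM) and the E protein gene TCF3 (log2 fold change -0.40). SNAI3, the third Snail gene, was under 1 CPM in both groups.

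Among epithelial transcription factor genes, GRHL1, ELF3, KLF4 and KLF5 passed the filter in both groups and rose in T47D-TR. Of 11 listed, 9 were in the table and 6 were tested and called higher, with a median of 1.77. The other two, TP63 and EHF, passed the filter through T47D-TR only, so that their direction was set by it. GRHL1, a grainyhead-like paralogue of GRHL2, went from 38, 44 and 42 counts to 116, 121 and 101, or 2.18 ± 0.118 CPM against 6.05 ± 0.101 CPM (a rise of 1.47 ± 0.05 on the log2 scale, edgeR adjusted p = 2.34e-06). KLF4, a Krüppel-like factor gene, gave 260 to 275 counts per T47D library and 811 to 1253 per T47D-TR library (log2 fold change 1.98), and the ETS factor gene EHF rose from 0.369 ± 0.107 to 2.27 ± 1.23 CPM. TP63, the p63 gene of basal epithelium, had 3 counts over T47D and 55 over T47D-TR, a ratio of 18.7 with a 95% exact interval of 6.06 to 93.3. GRHL3 and OVOL2 had at most 9 counts in any library and were not tested. OVOL2, which encodes a repressor of ZEB1, had 6, 6 and 3 counts in T47D and 2, 2 and 0 in T47D-TR.

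Junction and other epithelial genes, which ZEB and Snail proteins repress or grainyhead-like proteins activate, split in both directions. Of 32 listed, 31 were in the table and 27 were tested, of which 16 rose, 9 fell and 2 were not called (median 0.41). TJP3 passed the filter through T47D-TR only, and SPINT1 and LAD1 through T47D only. TJP3, a tight junction scaffold gene, rose from 0.832 ± 0.29 to 6.30 ± 1.52 CPM, the claudin gene CLDN7 from 1.44 ± 0.265 to 8.67 ± 1.82 CPM and the periplakin gene PPL from 21.5 ± 0.512 to 123 ± 5.95 CPM. CDH1 had 37, 57 and 27 counts in T47D and 97, 159 and 57 in T47D-TR, where replicate 3 was lowest and tied the highest T47D count. In CPM its groups did not overlap, at 2.12 ± 0.741 and 5.50 ± 2.40 (log2 fold change 1.38 ± 0.45, edgeR adjusted p = 0.00189).

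Among the genes that fell, EPCAM, the epithelial adhesion molecule gene, went from 38.6 ± 0.586 to 14.7 ± 2.24 CPM, and AP1M2, an epithelial sorting adaptor gene, from 48.6 ± 1.03 CPM in T47D to 14.9 ± 2.58 CPM in T47D-TR (a log2 difference of -1.70 ± 0.15, edgeR adjusted p = 2.02e-08). SPINT1, a serine protease inhibitor gene, had 45, 42 and 45 counts in T47D and 3, 3 and 1 in T47D-TR. LAD1, a basement membrane anchor gene, fell from 63 counts over T47D to 1 over T47D-TR, a ratio of 61.9 with a 95% exact interval of 10.7 to 2483. CLDN3, CRB3, RAB25 and PRSS8 were under 1 CPM in both groups.

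The upstream sequences of DSP, which encodes the desmosomal protein desmoplakin, and AP1M2 are shown because both hold CACCTG and the genes moved in opposite directions. DSP rose from 134 ± 5.57 to 383 ± 9.66 CPM. Its 250-base window has 2 copies, and the 154 bases outside annotated UTRs (chr6:7541421-7541574, plus strand) show the one that begins 178 bases before the start. The AP1M2 window has 3, beginning 57, 27 and 15 bases before the start (chr19:10587316-10587562, minus strand). Copies are in capitals, on either strand.
DSP upstream: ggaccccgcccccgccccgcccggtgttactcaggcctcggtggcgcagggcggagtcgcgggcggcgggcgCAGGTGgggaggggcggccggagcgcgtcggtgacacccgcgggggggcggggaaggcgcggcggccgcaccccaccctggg
AP1M2 upstream: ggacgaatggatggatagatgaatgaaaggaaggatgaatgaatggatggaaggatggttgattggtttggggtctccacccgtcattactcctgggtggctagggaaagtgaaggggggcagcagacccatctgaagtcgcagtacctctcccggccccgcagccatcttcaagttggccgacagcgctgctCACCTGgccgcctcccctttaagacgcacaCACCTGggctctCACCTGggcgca

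Of 19 listed junction and other epithelial genes with an entry in the RefSeq promoter table, 10 (52.6%) held CACCTG at their first start. The share was 16.1% of tested genes and 17.5% of all 27305 genes there. Not all of the 19 were tested. Some were listed because ZEB or Snail proteins are known to act on them. A copy was present in 5 of 10 that rose and 2 of 5 that fell.

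**Figure D4:**
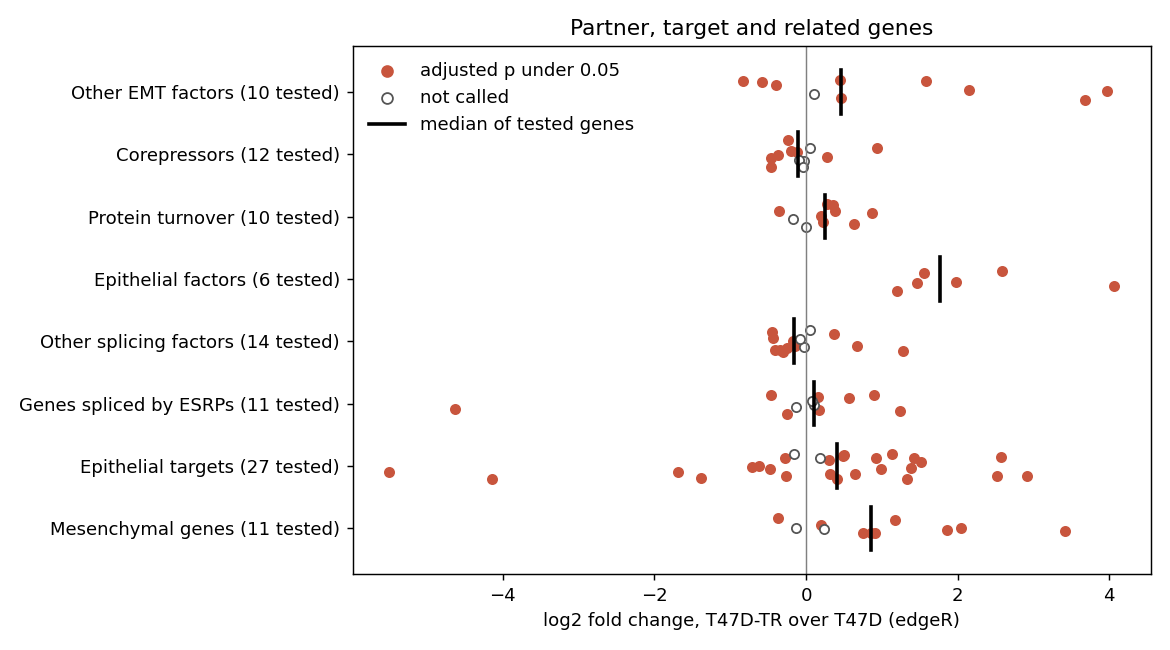
Log2 fold change of T47D-TR over T47D (horizontal axis, edgeR) for tested genes of 8 related lists, one point per gene, filled where called and with the list median as a bar. The 6 tested epithelial factor genes, TP63 and EHF among them, lie above 1, while epithelial targets run from a fitted -5.50, for LAD1, to 2.91, for TJP3.

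Mesenchymal genes were higher in T47D-TR in most cases. Of 16 listed, 14 were in the table and 11 were tested. Of these 8 rose, against 32.5% of all tested genes, 1 fell and 2 were not called (median 0.86). The untested SPARC, MMP2 and CNN1 had their highest counts in T47D-TR replicate 3. SPARC had 2, 2 and 19 counts in T47D-TR replicates 1 to 3, MMP2 10, 3 and 16, and CNN1 0, 2 and 11. In T47D they had at most 8, 1 and 2 counts. FN1 (fibronectin) had a log2 fold change of 3.41, TNC (tenascin) of 2.04 and ITGA5, an integrin gene for fibronectin, of 1.86. VIM rose to 1295 ± 22.4 CPM, and CDH2, the N-cadherin gene, from 60.2 ± 3.21 to 69.1 ± 2.72 CPM (edgeR adjusted p = 0.00789). CALD1, an actin-binding protein gene, fell from 176 ± 2.24 to 136 ± 4.62 CPM. T47D-TR thus had more transcript of FN1, TNC, ITGA5, VIM and, 1.15-fold, CDH2, though not of CALD1. GRHL1, ELF3, KLF4 and KLF5 were also higher in the same libraries, while ESRP2, EPCAM and AP1M2 were lower. Of the 27 tested junction and other epithelial genes, 16 rose and 9 fell.

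Genes that ESRP proteins splice were measured only as whole genes, so their isoforms were not analysed here. Of 11 tested, 5 rose and 3 fell (median 0.11). FGFR2, a growth factor receptor gene with an epithelial and a mesenchymal form, had 56, 62 and 67 counts in T47D, through which it passed the filter, and 0, 3 and 4 in T47D-TR. The hyaluronan receptor gene CD44 rose from 488 ± 6.26 to 720 ± 57.6 CPM and RALGPS2, an exchange factor gene, from 55.9 ± 1.35 to 131 ± 10.7 CPM. SCRIB, a polarity gene, and CTNND1, the p120 catenin gene, fell by 0.47 and 0.26 on the log2 scale.

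Other splicing factors linked to EMT were mostly lower. Of 14 tested, 3 rose, 8 fell, against 30.5% of all tested genes, and 3 were not called (median -0.16). SRSF1, an SR protein gene, fell from 617 ± 4.66 to 458 ± 7.53 CPM, QKI from 51.7 ± 1.13 to 39.0 ± 0.749 CPM and AKAP8 by 0.45 on the log2 scale. Muscleblind gene MBNL2 rose from 116 ± 2.92 to 184 ± 7.57 CPM, RBFOX2, whose protein promotes mesenchymal splicing, from 149 ± 2.45 to 193 ± 0.391 CPM and CELF2 from 2.11 ± 0.301 to 5.14 ± 0.345 CPM. RBM47, an RNA-binding protein gene of epithelial cells, stood at 95.6 ± 3.60 and 93.6 ± 4.09 CPM (edgeR adjusted p = 0.635).

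Profiles were compared by the root mean square distance of log2 CPM, centred per gene, over the 6 libraries. This was done for the 5 genes with a mean of at least 1 CPM over all libraries, and the nearest genes were MCEE and PPCDC for ZEB1 (distances 0.031 and 0.034) and C12orf5 and TATDN3 for SNAI1 (both 0.026). TXNRD3 and FAM195B were nearest to ESRP2 (0.047 and 0.048), HSPA8P15 and LRIG3 to SNAI2 (0.060 and 0.075) and LOC441124 and GLI4 to TWIST1 (0.030 and 0.033). With a prior count of 0.5 in place of 2, TGFB2 stood in for HSPA8P15 beside SNAI2 and NARR for FAM195B beside ESRP2, and the order for SNAI1 and TWIST1 changed. HSPA8P15 is a pseudogene whose reads may be shared with its parent gene. Genes with little change have many near neighbours, and the libraries share their group and depth.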

How the data were processed

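TRIzol-extracted, poly(A)-selected RNA was made into directional libraries, per the labels' protocols. The submitters' processing notes name HISAT2 2.1.0, GRCh38 and DESeq; no source used here names the counting tool or the strand setting. The table holds whole-number counts per gene and library as deposited, although its name says FPKM. The authors' group means are deposited on a normalized signal scale, beside their fold change (ratio), log2 fold change and p-value with false discovery rate; 0 columns of per-sample values were left unused.

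Libraries were grouped by title. edgeR 4.0.16 (glmQLFit, glmQLFTest) compared T47D-TR with T47D on counts scaled by TMM, after filterByExpr (min.count 10, min.total.count 15). Library-to-library variance of log2 CPM, with 2 as the prior count, gives the SE; the prior narrows it at low counts. RPKM is CPM over merged GENCODE 29 exons, for 15916 genes matched by symbol. Alternatives used DESeq2 1.42.0, limma 3.58.1, other scalings and filters, the replicate block and leaving out each library. The design named limma if the table had held FPKM. The procedure was tested on simulated data.

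The genes and lists were chosen with earlier results of these data known. Named genes are the 8 members, ESR1, up to 3 called genes with the largest change in each direction from each list, and the 2 nearest profiles of each member at 1 CPM or more. Others named (among them CDH1, EPCAM, VIM, DSP, ZEB2, GRHL1, NFATC3 and the fibroblast, other marker and untested genes) were chosen after their values were seen. Some genes that this rule names are not reported here. One list gene, PATJ, was matched by gene ID as INADL. Promoters are RefSeq's for GRCh38.p14; of the 7 genes, ZEB1 and TWIST2 were matched there.

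Same-numbered libraries did not deviate together (r of -0.0051, -0.021 and -0.014 for replicates 1, 2 and 3), so the numbers were not taken as pairs.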

Additional observations from a re-analysis of the deposited data

How the results depend on the processing

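The log2 fold changes of TWIST2, ESRP1 and ESRP2 kept their direction and call wherever they were tested. For TWIST2 and ESRP1, most of these settings used the filter that had set their direction. ZEB1 was not called with voom and quantile normalization (0.17, limma adjusted p = 0.0687) or with library size alone (0.19, edgeR adjusted p = 0.0535). Leaving out each library gave 0.17 to 0.28 for ZEB1, -0.43 to -0.26 for SNAI1 and 0.0751 to 0.39 for SNAI2. With voom and quantile normalization, which shifted the median gene by -0.11, the uncalled TWIST1 was at -0.10, LOC441124 at -0.11, HSPA8P15 at -0.031, LRIG3 at -0.028 and GLI4 at -0.025. Of the 7 genes, 3 to 6 were called and 1 to 3 were higher when each library was left out. A mean CPM of at least 5 removed TWIST2 and ESRP1 and left 3 calls, 1 of them higher; with voom and with library size alone 1 was higher. The same filter removed genes with lower counts, among them FOXC2, TCF4, GRHL1, EHF, TP63 and ZEB1-AS1. It left 3 other EMT factor genes, 3 epithelial factor genes and 0 antisense genes called higher. Of the turnover genes 2 were lower with voom and with library size alone. Of the mesenchymal genes 2 were lower with library size alone, with DESeq2 size factors and with the replicate block, and 1 to 2 when each library was left out. With the replicate block 5 of the 7 genes were called, 2 higher and 3 lower, with ZEB1 at 0.22, and it changed no other call among them. At 3 counts per library, ESRP1 in T47D and TWIST2 in T47D-TR are limited by depth.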

Other observations

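Corepressors that Snail and ZEB proteins recruit changed in both directions. Their median size of change was 0.22 on the log2 scale, against 0.36 for all tested genes. Of 12 tested, 2 rose and 6 fell, against 32.5% and 30.5% of all tested genes. The other 4 were not called, and the median log2 fold change was -0.10. The lysyl oxidase-like gene LOXL2, whose protein stabilises Snail, rose by 0.93 on the log2 scale (88.9 ± 1.81 CPM in T47D, 169 ± 7.07 CPM in T47D-TR; edgeR adjusted p = 7.95e-09). RCOR1, the CoREST gene, had a log2 fold change of 0.27. The deacetylase gene HDAC2 fell from 216 ± 6.23 to 156 ± 5.58 CPM, the Polycomb methyltransferase gene EZH2 from 129 ± 2.77 to 94.3 ± 2.21 CPM and CTBP2, a corepressor gene bound by ZEB1, from 102 ± 2.66 to 78.7 ± 3.86 CPM.

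Genes for the turnover of Snail and related proteins were mostly higher in T47D-TR. Among 10 tested, 7 rose and 1 fell, against 32.5% and 30.5% of all tested genes, and the median was 0.25. Only 5 rose with DESeq2, with voom and quantile normalization, or without any 1 of the T47D replicates. GSK3B, the kinase gene whose product marks Snail for degradation, rose from 152 ± 4.31 to 197 ± 6.57 CPM, and the ubiquitin ligase gene FBXO11 by 0.63 ± 0.03 on the log2 scale, to 94.4 ± 3.51 CPM (edgeR adjusted p = 3.2e-07). USP27X, a deubiquitinase gene, rose from 1.62 ± 0.135 to 2.96 ± 0.152 CPM, while the ligase gene BTRC fell from 30.7 ± 1.68 to 24.0 ± 0.406 CPM. These are transcript levels, and protein levels were not measured.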
